A study of Mus musculus with 18 samples.

Results

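The 6 genes described here are the gene of the glucocorticoid receptor, Nr3c1, the gene of an enzyme that makes its hormone inside the cell, Hsd11b1, and the genes of 4 textbook targets of the receptor, Tsc22d3, Fkbp5, Sgk1 and Zbtb16. They were chosen by name for their part in the pathway, and all 6 were found in each of the 3 gene count tables, which together list 21018 genes. The study compared 3 RNA-Seq library kits on the same mouse liver RNA. Livers of 12-week male C57/B6J mice were collected 4 hours after 20 µg/kg of IL-1β (mice ILB.9579, ILB.9582 and ILB.9583) or after saline (mice UNT.9574, UNT.9575 and UNT.9576), and RNA of each mouse entered every kit, which gave 18 libraries. Pico is a stranded kit for total RNA, V4 an unstranded poly(A) kit, and TruSeq a stranded poly(A) kit. The model is a single dose, a single time point and 1 sex, in whole liver.

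Glucocorticoids are steroid hormones of the adrenal gland. In cells that are not exposed to hormone, the receptor is held in the cytosol by Hsp90 chaperones and their partners, and with hormone bound it enters the nucleus and binds a palindrome with the arms AGAACA and TGTTCT. Liver responds to it with enzymes of glucose production and amino acid breakdown, and IL-1β, a cytokine of the acute-phase response, is also known to raise the hormone in blood. Blood hormone was not analysed here.

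Libraries of TruSeq held 12348864 to 12858237 gene counts, those of V4 12013453 to 12352473 and those of Pico 4024632 to 4134070, and every one of the 6 genes had counts in every library. A level in CPM is the count scaled to a library of 1000000 counts. All 8 hepatocyte markers, Alb among them, were above 0 in every library, as the liver label states. The summed CPM of 8 neutrophil markers was higher after IL-1β in every kit, 42.3 to 59.4 against 0.971 to 5.14 in Pico, 43.4 to 86.1 against 2.15 to 5.24 in V4 and 47.9 to 93.9 against 3.36 to 6.16 in TruSeq. Of these 8 markers, 2 in Pico, 2 in V4 and 4 in TruSeq had counts in every library, S100a8 and S100a9 rose in each kit, and Ly6g was without counts in Pico and V4. By contrast, the sums for hepatocytes, Kupffer cells, endothelial cells and stellate cells were lower in every kit, while those of B cells and bile duct cells overlapped between treatments. The sum of T and NK cell markers was lower in TruSeq (1.21 to 2.25 against 2.29 to 2.58) and overlapped in Pico and V4. Within the lower sums, the endothelial markers Lyve1 (Pico and TruSeq) and Cdh5 (Pico) and the macrophage marker Marco (TruSeq) rose. In TruSeq the hepatocyte sum was 66753 to 72932 CPM after IL-1β and 97050 to 114689 after saline, the Kupffer cell sum 75.9 to 112 and 157 to 251, the endothelial sum 92.2 to 118 and 180 to 205, and the stellate cell sum 231 to 287 and 378 to 445. The part of these shifts in the results below was not tested, and in whole tissue fewer cells of a type and less RNA per cell cannot be told apart.

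After IL-1β, transcripts of the receptor, of Hsd11b1 and of Tsc22d3 were lower, and those of Fkbp5, Sgk1 and Zbtb16 were higher in Pico and TruSeq, while in V4 only Hsd11b1 and Tsc22d3 passed the test. At an adjusted p of at most 0.05 (limma-voom, Benjamini-Hochberg over all genes of the kit), 3 of the 6 genes were called higher and 3 lower in Pico, where 6.78% of all genes were called higher and 10.8% lower. In TruSeq it was again 3 and 3, against 12.3% and 21.8% of all genes. In V4, 0 were called higher and 2 lower, against 3.6% and 7.41%. The shares of all genes include every gene with at least 1 count, while each of the 6 averaged at least 20 counts. A share among genes of like counts was not taken. The 6 genes were also chosen with earlier results of these data known, so these shares are a description. In V4 Sgk1 and Zbtb16 had an unadjusted p of 0.00571 and 0.00593, and edgeR and DESeq2 called both higher. Fitted directions were the same in the 3 kits for each gene. Whether the groups overlapped is given below for each gene as a description, since the share of all genes with groups apart was not counted. TMM scaling moved the median of all genes up by 0.13 (Pico), 0.17 (V4) and 0.16 (TruSeq) on the log2 scale. The share of calls that were higher then moved from 38.6% to 52.9%, from 32.7% to 49.7% and from 36.0% to 50.9%, and the directions of the 6 genes held under both scalings.

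**Figure D1:**
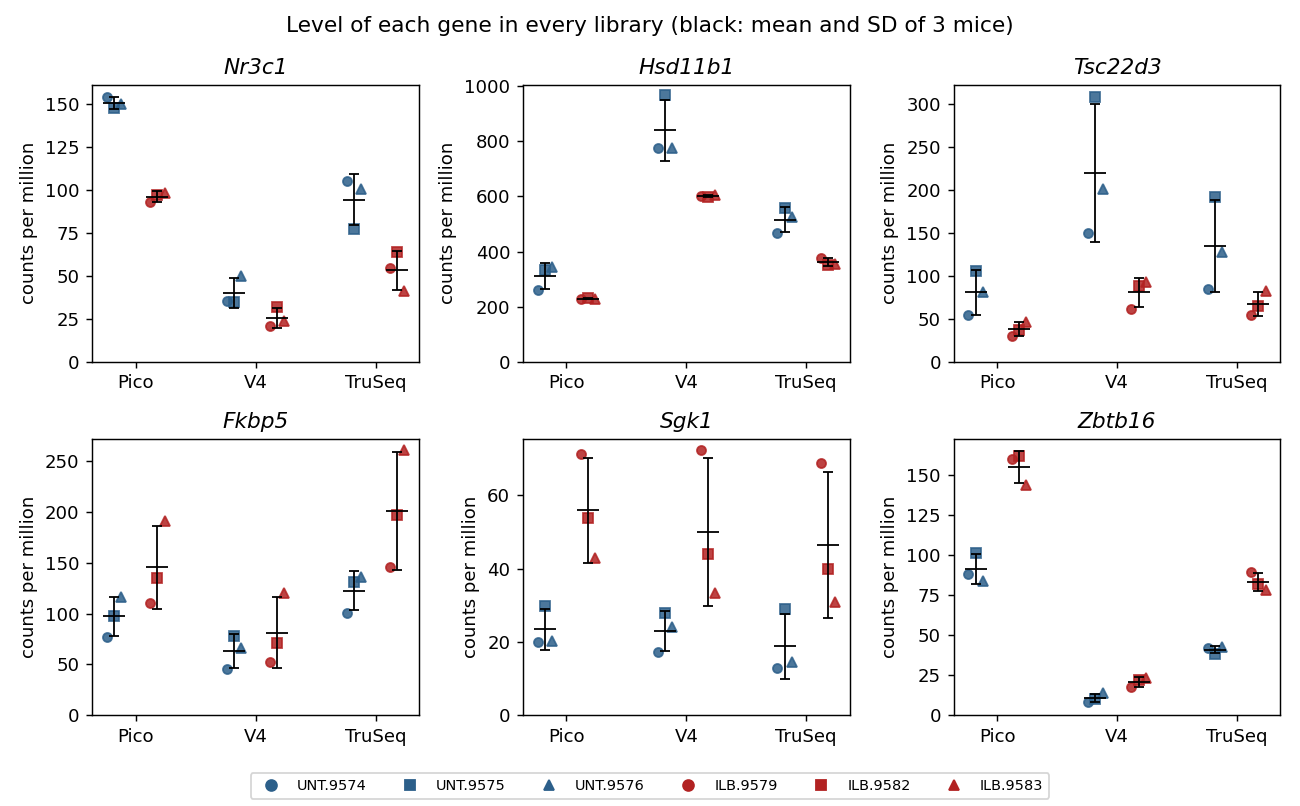
Level of each of the 6 genes in CPM (vertical axis) in every library, by kit, for the saline mice (blue, UNT) and the IL-1β mice (red, ILB), with the mean and SD of 3 mice in black. The red and blue points are apart in every kit for each gene except Fkbp5, which overlapped in Pico and V4. The share of all genes with groups apart was not counted.

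Nr3c1 (ENSMUSG00000024431, minus strand of chromosome 18, 39570199 to 39650955 in mm9) codes for the receptor itself. Its counts in Pico were 376, 392 and 398 in the IL-1β mice ILB.9579, ILB.9582 and ILB.9583 and 631, 609 and 621 in the saline mice UNT.9574, UNT.9575 and UNT.9576. In V4, with the mice in the same order, they were 253, 385 and 283 against 425, 422 and 619, and in TruSeq 682, 788 and 514 against 1334, 993 and 1291. All IL-1β libraries lay below all saline libraries in each kit. The log2 fold change was -0.65 (SE 0.12, adjusted p = 0.00114) in Pico, -0.66 (SE 0.24, adjusted p = 0.114) in V4 and -0.83 (SE 0.17, adjusted p = 0.00439) in TruSeq. Nr3c1 thus fell to 0.638-fold in Pico and 0.561-fold in TruSeq. The coefficient of variation after IL-1β and after saline was 22.5% and 23.1% in the V4 libraries, 20.9% and 15.4% in those of TruSeq, and 2.93% and 1.78% in those of Pico. The Pico values lie below the spread that counting alone gives at such counts. From 3 libraries per group they do not show that Pico is more precise. The V4 change passed the threshold in the fit of all 18 libraries alone (adjusted p = 0.0171), and the Pico and TruSeq calls held under every alternative.

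Hsd11b1 (ENSMUSG00000016194, minus strand of chromosome 1, 195047824 to 195090248) codes for the enzyme of the endoplasmic reticulum that turns inactive steroids such as cortisone back into active hormone. Its counts were 923, 927 and 915 after IL-1β and 1056, 1378 and 1426 after saline in Pico, 7311, 7222 and 7283 against 9332, 11699 and 9597 in V4, and 4700, 4345 and 4422 against 5892, 7146 and 6747 in TruSeq. The groups did not overlap in any kit, and the IL-1β mice were close to each other, with a coefficient of variation of 0.663%, 0.626% and 4.16% in the 3 kits. In Pico and V4 this lies below the spread that counting alone gives at such counts, so it does not show that the mice were alike. Hsd11b1 fell in every kit, with a log2 fold change of -0.44 in Pico (SE 0.12, adjusted p = 0.0145), -0.48 in V4 (SE 0.13, adjusted p = 0.0386) and -0.51 in TruSeq (SE 0.095, adjusted p = 0.00269). With TMM factors in voom the log2 fold change was -0.31 in Pico and in V4, and both calls were lost (adjusted p = 0.0876 and 0.197), as they were with edgeR (0.0608 and 0.28) and DESeq2 (0.066 and 0.206). The TruSeq call held under every alternative, with adjusted p of 0.0012 to 0.0264. Without saline mouse UNT.9575, UNT.9576 or any 1 IL-1β mouse, the Pico call was lost, with an adjusted p of 0.0785 to 0.0943, and the V4 call was lost without any 1 mouse other than UNT.9576, with an adjusted p of 0.0646 to 0.151.

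Tsc22d3 (ENSMUSG00000031431, minus strand of chromosome X, 137074067 to 137135198) codes for the glucocorticoid-induced leucine zipper, a protein that dampens inflammatory signalling. Its counts were 122, 150 and 188 after IL-1β and 223, 437 and 336 after saline in Pico. In V4 they were 750, 1069 and 1114 against 1805, 3723 and 2475, and in TruSeq 679, 805 and 1017 against 1071, 2444 and 1640. The groups did not overlap in any kit, and saline mouse UNT.9575 was the highest in each. Tsc22d3 fell in every kit, with a log2 fold change of -1.06 in Pico (SE 0.24, adjusted p = 0.00462), -1.40 in V4 (SE 0.27, adjusted p = 0.00742) and -0.94 in TruSeq (SE 0.26, adjusted p = 0.0202). It was the only one of the 4 targets to fall. The V4 call held under every alternative. In TruSeq the call was lost without saline mouse UNT.9575 (log2 fold change -0.65, adjusted p = 0.0765), UNT.9576 (-0.94, 0.0981) or IL-1β mouse ILB.9579 (-0.80, 0.107) or ILB.9582 (-0.93, 0.0925), and in Pico without ILB.9579 (-0.90, 0.0819) or ILB.9582 (-1.05, 0.0835) and in the fit of all 18 libraries (-1.06, 0.114).

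RefSeq (GRCm38.p6) gives 3 promoters for Tsc22d3, each of 250 bases before and 50 after a start, and 1 of them holds an arm of the palindrome (AGAACA or TGTTCT, on either strand). Its letters were found once in mm9, at chrX:137135012-137135311 on the minus strand, the start farthest upstream. It is shown because it is the only Tsc22d3 promoter with a match. An arm is common, since 19% of all 32851 promoters hold at least 1. The capitals mark the arm, whose first base lies at -185 from the start.
Tsc22d3 promoter: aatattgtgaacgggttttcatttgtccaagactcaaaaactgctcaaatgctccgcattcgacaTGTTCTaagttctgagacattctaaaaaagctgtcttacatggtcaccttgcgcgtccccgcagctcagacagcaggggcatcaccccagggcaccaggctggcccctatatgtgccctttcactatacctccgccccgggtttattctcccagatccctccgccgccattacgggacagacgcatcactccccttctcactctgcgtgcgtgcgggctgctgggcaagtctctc

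Fkbp5 (ENSMUSG00000024222, minus strand of chromosome 17, 28536040 to 28654469) codes for a co-chaperone that sits on the receptor complex and lowers its affinity for hormone. Its counts were 448, 543 and 769 after IL-1β and 316, 403 and 480 after saline in Pico, 636, 857 and 1445 against 548, 947 and 816 in V4, and 1808, 2426 and 3239 against 1276, 1674 and 1744 in TruSeq. The groups were apart in TruSeq alone, by 1808 against 1744 counts at their nearest. IL-1β mouse ILB.9583 was the highest of the 6 in each kit. The log2 fold change was 0.56 in Pico (SE 0.19, adjusted p = 0.0482), 0.30 in V4 (SE 0.30, adjusted p = 0.596) and 0.69 in TruSeq (SE 0.20, adjusted p = 0.0235). Without mouse ILB.9583 it was 0.35 (adjusted p = 0.278), -0.021 (adjusted p = 0.969) and 0.48 (adjusted p = 0.0869), so the rise was below the threshold in every kit and without direction in V4. Leaving out saline mouse UNT.9574, the lowest, also ended the calls in Pico (0.41, adjusted p = 0.286) and TruSeq (0.55, adjusted p = 0.142), as did leaving out UNT.9575 (adjusted p = 0.15 and 0.0733), UNT.9576 (0.0772 and 0.0683) or ILB.9582 (0.188 and 0.0945). In the fit of all 18 libraries the Pico estimate kept its size, 0.56, with an adjusted p of 0.276.

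Fkbp5 holds 2 full receptor palindromes, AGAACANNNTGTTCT (the same on both strands), in introns. In mm9 there are 639 such palindromes in 2559 Mb, or 0.25 per Mb, and 1.53% of the 21018 genes have at least 1 inside the gene or within 10 kb of it. Of the 1203 genes whose window is of like length to that of Fkbp5 (within 1.25-fold), 4.07% have at least 1. A palindrome was found for 2 of the 6 genes, Fkbp5 with 2 and Sgk1 with 1, and none for the others under these letters. The 3 sites are shown on the strand of the gene, with 10 bases on each side and the palindrome in capitals, because they are the only full matches near the 6 genes. The Fkbp5 sites lie at chr17:28557256-28557290 and chr17:28579354-28579388 on the minus strand, 97189 and 75091 bases from the annotated start, and the Sgk1 site at chr10:21713497-21713531 on the plus strand, 111517 bases from the start. A match of letters does not show that the receptor binds there.
Fkbp5 site farther from the start: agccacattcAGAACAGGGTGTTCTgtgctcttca
Fkbp5 site nearer to the start: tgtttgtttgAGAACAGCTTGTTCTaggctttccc
Sgk1 site: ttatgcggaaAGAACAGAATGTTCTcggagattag

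**Figure D2:**
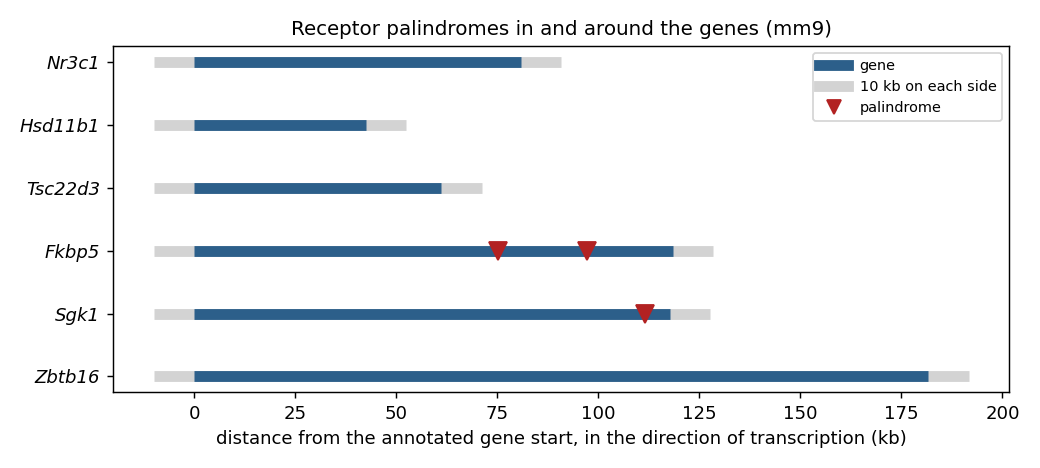
Position of full receptor palindromes (red triangles) along the 6 genes, as distance in kb from the annotated start in the direction of transcription, with the gene in blue and 10 kb on each side in grey. Fkbp5 has 2, Sgk1 has 1, and the other bars carry no triangle.

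Sgk1 (ENSMUSG00000019970, plus strand of chromosome 10, 21601990 to 21719709) codes for a serine/threonine kinase that acts on ion transport. Its counts were 288, 216 and 173 after IL-1β and 82, 123 and 84 after saline in Pico. In V4 they were 880, 529 and 403 against 207, 338 and 296, and in TruSeq 853, 492 and 382 against 164, 372 and 188. The groups did not overlap in any kit, and in TruSeq the lowest IL-1β mouse, ILB.9583, with 382 counts, was next to the highest saline mouse, UNT.9575, with 372. Sgk1 rose by a log2 fold change of 1.24 in Pico (SE 0.24, adjusted p = 0.0013) and 1.31 in TruSeq (SE 0.34, adjusted p = 0.0141), which is 2.37-fold and 2.48-fold. In V4 the log2 fold change was 1.07 (SE 0.31, adjusted p = 0.0511), and it passed the threshold with edgeR (adjusted p = 0.00243), DESeq2 (0.000481), TMM factors in voom (0.0258), only genes that reach 10 counts in 3 libraries (0.0356), the fit of all 18 libraries (0.016) or without mouse ILB.9583 (0.0425). The Pico call was lost in the fit of all 18 libraries (adjusted p = 0.072). The TruSeq call was lost without saline mouse UNT.9574 (log2 fold change 1.09, adjusted p = 0.111) or UNT.9576 (1.17, 0.104), or IL-1β mouse ILB.9579 (0.99, 0.0598) or ILB.9582 (1.38, 0.0575).

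RefSeq gives 6 promoters for Sgk1, and 3 of these hold an arm of the palindrome. The one shown holds the full palindrome, from -189 to -175 of its start, and is the same site as the intron site above, since the annotated gene reaches farther upstream. Only 3 of 32851 mouse promoters in the table (0.00913%) hold this palindrome, while 6233 (19%) hold an arm. Its letters were found once in mm9, at chr10:21713446-21713745 on the plus strand. Capitals mark the arms, 2 of which form the palindrome. The promoters in the table for Hsd11b1 and Fkbp5, 1 for each, hold neither motif. Of the 26 promoters of the other glucocorticoid-induced genes listed below, 0 hold the palindrome and 2 (7.69%) an arm. For the genes of receptor and hormone handling it was 0 and 5 (35.7%) of 14 promoters.
Sgk1 promoter: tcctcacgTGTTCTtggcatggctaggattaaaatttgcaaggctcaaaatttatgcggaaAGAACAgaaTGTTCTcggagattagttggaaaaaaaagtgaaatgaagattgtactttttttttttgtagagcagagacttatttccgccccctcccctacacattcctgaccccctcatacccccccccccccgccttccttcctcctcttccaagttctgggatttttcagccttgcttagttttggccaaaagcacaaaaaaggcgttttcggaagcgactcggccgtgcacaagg

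Zbtb16 (ENSMUSG00000066687, minus strand of chromosome 9, 48462416 to 48644050) codes for a zinc finger repressor of transcription, also known as PLZF. Its counts were 647, 651 and 580 after IL-1β and 360, 419 and 346 after saline in Pico. In V4 they were 213, 265 and 281 against 103, 126 and 171, and in TruSeq 1110, 1013 and 974 against 529, 494 and 548. Every IL-1β library was above every saline library in each kit. Zbtb16 rose by a log2 fold change of 0.77 in Pico (SE 0.13, adjusted p = 0.000485) and 1.02 in TruSeq (SE 0.10, adjusted p = 6.76e-05), which is 1.70-fold and 2.03-fold, and both calls held under every alternative. In V4 it was 0.95 (SE 0.28, adjusted p = 0.0524), past the threshold with edgeR (adjusted p = 0.0122), DESeq2 (0.0028), TMM factors in voom (0.0304), the filter on 10 counts (0.0321), the fit of all 18 libraries (0.000996) or without saline mouse UNT.9576 (log2 fold change 1.13, adjusted p = 0.0376).

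**Figure D3:**
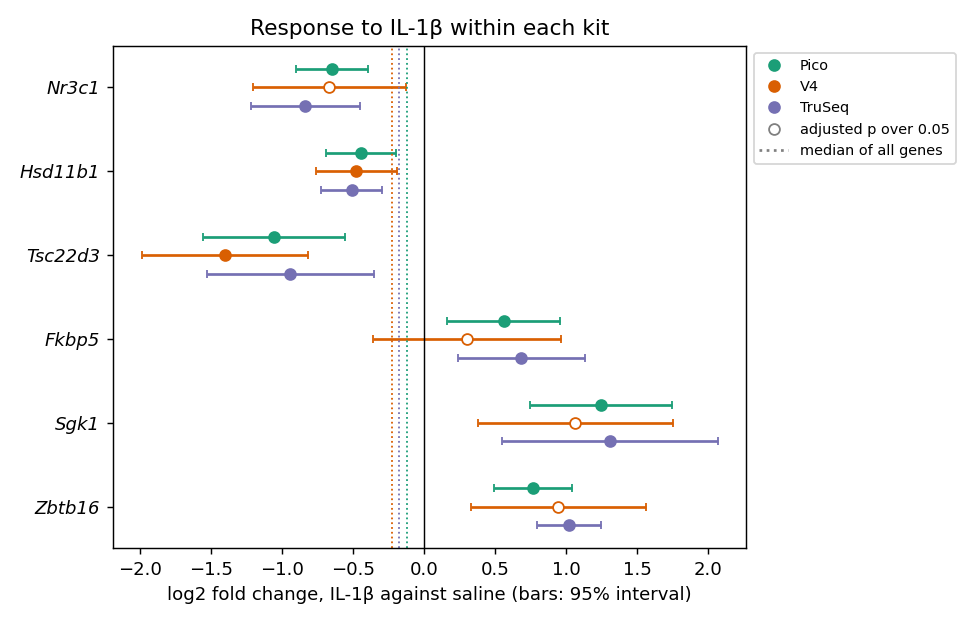
Log2 fold change of IL-1β against saline for the 6 genes in each kit, with 95% intervals as bars, filled points for an adjusted p of at most 0.05 and dotted lines at the median of all genes of the kit (-0.12 in Pico, -0.22 in V4 and -0.17 in TruSeq). Nr3c1, Hsd11b1 and Tsc22d3 lie below 0 in the 3 kits and Sgk1 and Zbtb16 above 0, while the V4 interval of Fkbp5 crosses 0.

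The difference in response between kits was then fitted with an interaction of kit and treatment on the 12 libraries of each pair of kits. Limma-voom called 0 of 17207 genes for Pico and TruSeq, 0 of 17147 for V4 and TruSeq and 0 of 16395 for Pico and V4 (0% of all genes in each pair), with 945, 1090 and 900 genes at an unadjusted p under 0.05. EdgeR called 0 in each, and DESeq2 called 4, 72 and 17. Without saline mouse UNT.9576, limma-voom called 0, 57 and 39. None of the 6 genes was called in any of these fits, and their smallest adjusted p with limma-voom was 0.91, 0.972 and 0.999. The intervals of the difference were nevertheless wide for the genes that varied between mice. These fits did not pair the libraries of a mouse, so spread between mice entered the intervals. For Tsc22d3 the SD of log2 CPM between mice was 0.30 after IL-1β and 0.53 after saline. Between kits within a mouse, each kit's mean removed, it was 0.086 and 0.079. Fkbp5 and Sgk1 likewise varied more between mice, while Hsd11b1 did so after saline only. For Nr3c1 the SD was 0.19 and 0.15 between mice and 0.22 and 0.19 between kits. For Zbtb16 it was 0.038 and 0.11 between mice and 0.18 and 0.24 between kits. A paired fit with its own correlation for each gene was not run. The response of Sgk1 in Pico minus that in TruSeq was -0.065 on the log2 scale (95% interval -1.08 to 0.95), and that of Tsc22d3 in V4 minus TruSeq was -0.46 (-1.37 to 0.45). For Fkbp5 the difference between V4 and TruSeq was -0.38 (-1.24 to 0.47). The narrowest intervals were those of Hsd11b1, 0.066 for Pico minus TruSeq (-0.25 to 0.38) and 0.033 for V4 minus TruSeq (-0.30 to 0.36). For Nr3c1 the differences were 0.19 (-0.26 to 0.63) and 0.17 (-0.48 to 0.82), and for Zbtb16 -0.25 (-0.58 to 0.079) and -0.074 (-0.62 to 0.47).

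Levels of different genes were compared within a kit as CPM per kb of annotated exon. Hsd11b1 was the highest of the 6 in every kit and treatment, at 115 ± 17.4 CPM per kb (SD, n = 3) in Pico, 310 ± 40.6 in V4 and 191 ± 17.3 in TruSeq after saline, and its range was apart from that of the next gene. After saline, the levels of Sgk1 were the lowest in Pico (4.78 ± 1.14) and TruSeq (3.85 ± 1.81), and those of Zbtb16 in V4 (2.15 ± 0.524). Neighbours in the order often overlapped. In Pico after saline, Nr3c1 (20.3 ± 0.461), Tsc22d3 (18.6 ± 5.93), Zbtb16 (17.9 ± 1.84) and Fkbp5 (15.4 ± 3.06) overlapped their neighbours among these 4. After IL-1β, Nr3c1 was the lowest of the 6 in V4 (3.42 ± 0.783) and TruSeq (7.19 ± 1.52), where it overlapped its neighbour, Zbtb16 in V4 and Sgk1 in TruSeq. The tables were normalized separately, and kit, RNA amount, read length and sequencing run cannot be told apart, so levels were not tested between kits.

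The mice kept their order across kits for some of the 6 genes and not for others. Of 12 sets of 3 mice (6 genes in 2 treatments), the order was the same in the 3 kits in 5, which were Tsc22d3 and Sgk1 in both treatments and Fkbp5 after IL-1β. These repeats are of the same RNA and are not independent animals. The share of all genes with the same order in the 3 kits was not counted. IL-1β mouse ILB.9579 was the highest for Sgk1 and the lowest for Tsc22d3 and Fkbp5 in every kit, and mouse ILB.9583 the reverse. After saline, mouse UNT.9574 was the lowest in every kit for Hsd11b1, Tsc22d3, Fkbp5 and Sgk1, 4 of the 6 genes. For Hsd11b1 in V4 this was close to a tie, at 776.8 CPM against 776.9 in UNT.9576. Among the 8960 genes whose counts averaged at least 20 in each kit, UNT.9574 was the lowest of the saline mice in every kit for 7.48%. Of the IL-1β mice, ILB.9579 was the highest in every kit for 7.67% of these genes and the lowest for 8.44%. For ILB.9583 it was 6.99% and 12.4%. For Nr3c1, mouse UNT.9575 was the lowest after saline in every kit, and no IL-1β mouse kept its place. No mouse kept the highest or the lowest place for Zbtb16.

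**Figure D4:**
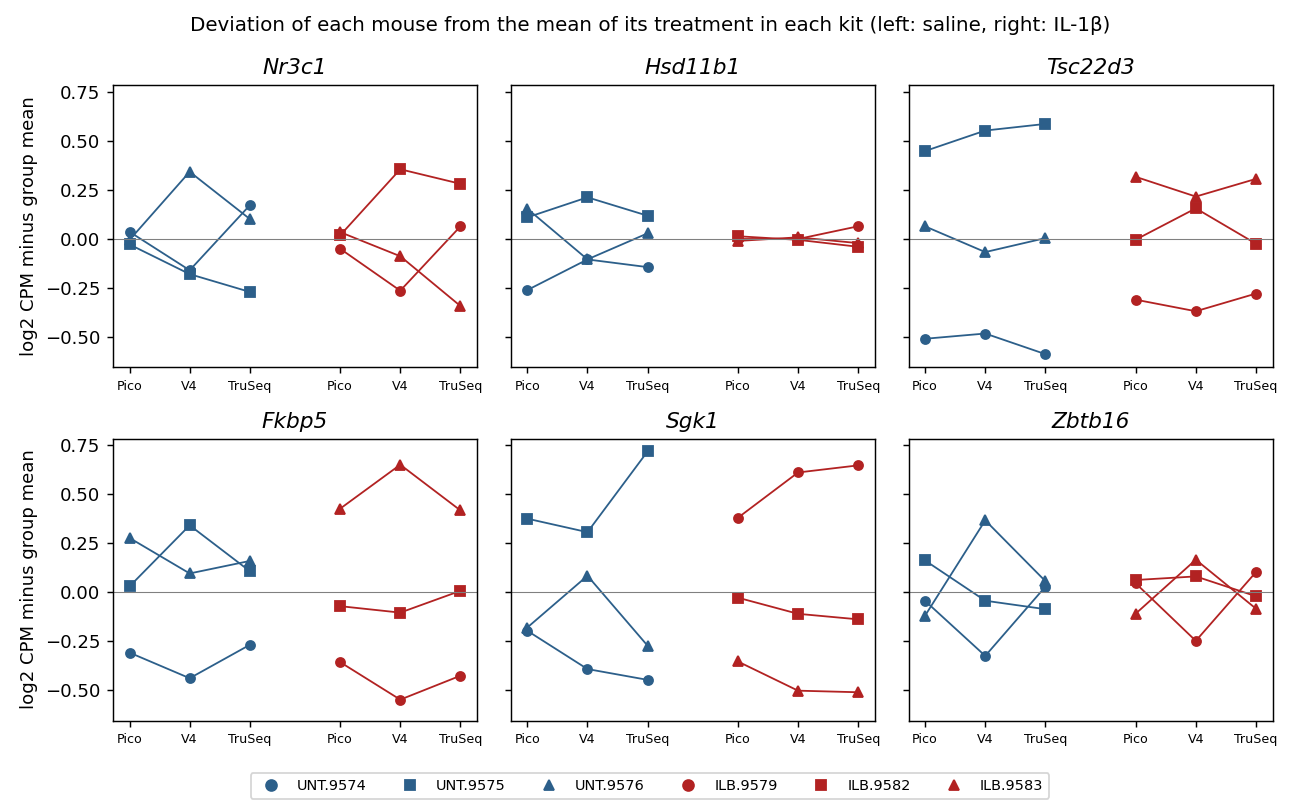
Deviation of each mouse from the mean of its treatment, in log2 CPM, for the 6 genes in each kit (saline on the left in blue, IL-1β on the right in red), with lines joining the libraries of 1 mouse. The lines of Tsc22d3 and Sgk1 keep their order across the kits in both treatments, while those of Nr3c1 and Zbtb16 cross.

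The genes whose pattern was most like each of the 6 were taken from the same 8960 genes, by Pearson's r of log2(CPM + 1) over the 18 libraries after subtracting each kit's mean. The libraries share treatment and mice, so r here is a description. For Nr3c1 they were Rabep1 (0.965), Dsp (0.939) and Gm15387 (0.939). For Hsd11b1 they were Afm (0.981), Uox (0.965) and Gls2 (0.963), and for Tsc22d3 Gm6484 (0.978), Fmo5 (0.959) and Slc16a5 (0.950). Fkbp5 had the lowest values, with Lpin1 (0.892), Fn1 (0.868) and Cyp2b10 (0.866). For Sgk1 they were Ets2 (0.930), Spcs2 (0.927) and Slc16a1 (0.920), and for Zbtb16 Slc9a3r1 (0.971), Gsdmd (0.966) and Ifitm2 (0.966).

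Around the receptor, 20 further genes of hormone handling, chaperones and cofactors were listed, of which 19 were in the tables and Hsd11b2 was not. In TruSeq 5 were called higher and 5 lower (26.3% each, against 12.3% and 21.8% of all genes). In Pico it was 3 and 5 (15.8% and 26.3%, all genes 6.78% and 10.8%), and in V4 0 and 2 (0% and 10.5%, all genes 3.6% and 7.41%). The shares called lower in TruSeq and V4 were near those of all genes. This list too was chosen with earlier results of these data known, so its shares are a description. The list's median log2 fold change in TruSeq was -0.0036 (all genes -0.17), in Pico -0.17 (all genes -0.12) and in V4 -0.059 (all genes -0.22). Called lower in the 3 kits were Fkbp4, a co-chaperone that aids transport of the receptor, and Serpina6, the carrier of the hormone in blood. Fkbp4 had a log2 fold change of -1.32 in Pico (adjusted p = 6.08e-05), -1.35 in V4 (0.00113) and -1.39 in TruSeq (9.96e-05), and its TruSeq counts were 925, 854 and 721 after IL-1β and 1815, 2513 and 2458 after saline. For Serpina6 the log2 fold change was -0.75, -0.67 and -0.71 (adjusted p = 0.00453, 0.0453 and 0.00591). The V4 call of Serpina6 was lost with edgeR (log2 fold change -0.50, adjusted p = 0.111), with TMM factors in voom (-0.50, 0.126) and with DESeq2 (-0.49, 0.0953), and without any 1 mouse other than UNT.9574 (0.0941 to 0.177). Its Pico call was lost without UNT.9576, ILB.9579 or ILB.9582 (0.0559 to 0.0641). H6pd, which supplies Hsd11b1 with its cofactor NADPH, rose by 0.83 in Pico (adjusted p = 1.6e-05) and 0.995 in TruSeq (0.000368), with 0.55 in V4 (0.173). In TruSeq the chaperone Hspa8 (0.86), the acetyltransferases Crebbp (0.55) and Ep300 (0.39) and the Mediator subunit Med1 (0.51) also rose, and the export pump Abcb1a (-1.09) and the coactivator Ncoa3 (-0.43) fell. Of these, Hspa8 and Crebbp rose and Ncoa3 fell in Pico too. The TruSeq call of Ncoa3 was lost with edgeR (adjusted p = 0.0981), TMM factors in voom (0.109) and DESeq2 (0.145), and those of Crebbp, Ep300, Abcb1a and Ncoa3 in the fit of all 18 libraries (0.0613, 0.0506, 0.211 and 0.0937), as were the Pico calls of Hspa8 (0.119) and Crebbp (0.108). Leaving out ILB.9582 ended the TruSeq calls of Hspa8, Crebbp, Ep300, Abcb1a and Ncoa3 and the Pico calls of Hspa8 and Crebbp (adjusted p of 0.0621 to 0.0994), and for each of these genes leaving out at least 1 other mouse did so too in TruSeq.

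Of 26 other genes that glucocorticoids are known to induce, 18 were called higher and 1 lower in TruSeq (69.2% and 3.85%), where the shares of all genes were 12.3% and 21.8%. In Pico it was 14 and 1 (53.8% and 3.85%, all genes 6.78% and 10.8%), and in V4 13 and 1 (50% and 3.85%, all genes 3.6% and 7.41%). The median log2 fold change of the list was 0.95 in TruSeq (all genes -0.17), 0.83 in Pico (-0.12) and 0.85 in V4 (-0.22). The list was chosen with earlier results of these data known, and all genes include many with few counts. Its shares beside those of all genes are therefore a description and not a test. Many of these genes also answer to inflammatory signals, and the hormone's part was not tested. In the 3 kits, 10 were called higher: the metallothioneins Mt1 and Mt2, the cell cycle inhibitor Cdkn1a, the mTORC1 inhibitor Ddit4, Tgm2, the binding protein Igfbp1, the transcription factor Cebpd, the phosphatase Dusp1 and the amino acid enzymes Tat and Sds. In TruSeq the log2 fold change was 7.01 for Mt2, 6.37 for Cdkn1a, 5.99 for Mt1, 3.57 for Ddit4, 2.87 for Tgm2 and 2.38 for Igfbp1. The call of Igfbp1 was lost in TruSeq without UNT.9574 (adjusted p = 0.0519) or UNT.9575 (0.0501), in Pico without UNT.9574 (0.0508) or ILB.9582 (0.0579) and in the fit of all 18 libraries (0.0678), and in V4 without UNT.9574 (0.0622), UNT.9575 (0.0896) or ILB.9582 (0.0627). It was 1.79 for Cebpd, 1.60 for Sds, 1.42 for Dusp1 and 1.28 for Tat, which stood at 58901, 58025 and 57121 counts after IL-1β and 19909, 32854 and 22935 after saline. The rises of Fkbp5, Sgk1 and Zbtb16 in TruSeq were 0.69, 1.31 and 1.02 on the same scale. The single gene called lower in each kit was G6pc, the last enzyme of glucose release, with a log2 fold change of -2.68 in Pico, -3.01 in V4 and -2.78 in TruSeq (adjusted p = 0.000439, 0.00329 and 0.002). Its TruSeq counts were 634, 509 and 347 after IL-1β and 1445, 3960 and 6964 after saline.

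**Figure D5:**
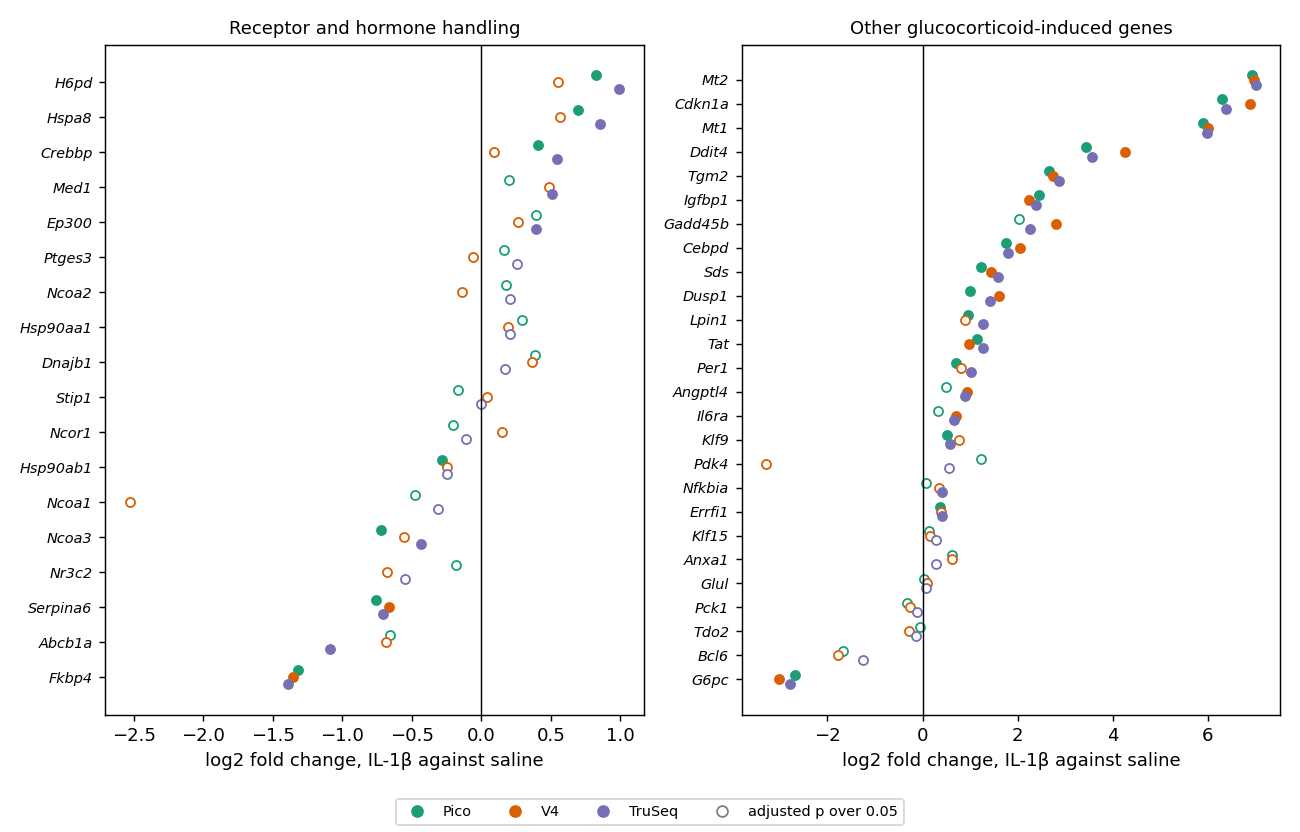
Log2 fold change of IL-1β against saline (horizontal axis) for 18 of the 19 genes of receptor and hormone handling (left) and 26 other glucocorticoid-induced genes (right) in each kit, with filled points for an adjusted p of at most 0.05. On the right, 10 genes have filled points above 0 in the 3 kits and G6pc has filled points below 0, while on the left Fkbp4 and Serpina6 alone have 3 filled points.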

How the data were processed

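The 18 libraries were made from liver RNA of 6 mice, with 1 library per mouse and kit. Reads were aligned by the authors with GSNAP to mm9, normalized by resampling of reads (PORT) and counted per gene, and library totals still differ within a kit. The deposited values are counts of whole reads, 1 table per kit with 18108 (Pico), 18051 (V4) and 19424 (TruSeq) genes. They are sense counts in Pico and TruSeq, and in V4 the strands are not separated. The sources used here do not state which of the repeated Pico runs the table holds. Coordinates and exon lengths are those of the GENCODE annotation of mm9, and no exon of the 6 genes overlaps an exon of another gene.

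Each kit was fitted with limma-voom (limma 3.58.1, R 4.3.3) on the counts and library totals, with Benjamini-Hochberg adjustment over all genes of the kit. Differences between kits were fitted as an interaction on 12 libraries. Alternatives were edgeR 4.0.16 (quasi-likelihood), TMM factors in voom, DESeq2 1.42.0, only genes that reach 10 counts in 3 libraries, no filter, 1 fit of all 18 libraries, an adjusted p of 0.1, each mouse left out and the mouse as a block. The fits within a kit (limma-voom, TMM factors in voom, edgeR and DESeq2) were first tested on simulated data. In these, 200 genes per kit were changed by 1 on the log2 scale. The share recovered was 5% in V4, 52.5% in Pico and 72.5% in TruSeq, and 37.5%, 8.7% and 4.61% of the calls were false. These shares are those of 1 fit per kit, and in V4 at least 1 of the other fits recovered a larger share. A missing call in V4 can therefore say little, and its calls can be false more often than the threshold states. The other fits were not part of this test. For 3 mice per group, p-values rest on the spread between mice and libraries together.

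RNA of the same animal entered every kit, so the mouse number pairs the libraries of different kits. Deviations from the group means of the same mouse correlated at 0.0789 to 0.234 for Pico with V4, 0.184 to 0.428 for Pico with TruSeq and 0.175 to 0.435 for V4 with TruSeq. For other mice the values were -0.346 to -0.0314. Within a group the deviations of the mice cancel out, so positive values for the same mouse force negative ones for other mice. The values for other mice therefore add no separate evidence of the pairing. Treatments were not paired, since their mice differ.

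Named genes are the 6 genes, up to 6 genes per list and direction with the largest change among those called in TruSeq, every listed gene called in the 3 kits, and the 3 genes most like each of the 6. Of the listed genes, 1 within this rule is counted but not reported here. The 6 genes, the lists and the settings were chosen with earlier results of these data known. Promoters are RefSeq's for GRCm38.p6, with 4 of the 6 genes matched by symbol, and were placed on mm9 by exact match. Nr3c1 and Zbtb16 had no entry. Python 3.11.15 with numpy 2.4.6, pandas 2.3.3 and matplotlib 3.10.9 was used for summaries and plots.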

Additional observations from a re-analysis of the deposited data

How the results depend on the processing

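Over the alternatives, 179 of the fold changes of the 6 genes within a kit kept their direction and side of the threshold, 39 lost a call, 15 gained one and 1 turned, that of Fkbp5 in V4 without mouse ILB.9583 (its value ran from -0.021 to 0.58 with each mouse left out). With edgeR, DESeq2 or TMM factors in voom, V4 called 2 of the 6 genes higher and 1 lower, and Pico called 5 of the hormone handling genes higher. In TruSeq the same 3 settings called 3 of the hormone handling genes lower, and with edgeR or TMM factors V4 called 1 of them lower. EdgeR also called 2 of the induced genes lower in Pico and in V4. The filter of 10 counts and an adjusted p of 0.1 each called 2 of the 6 genes higher in V4, and the latter 2 of the induced genes lower. One fit of all 18 libraries called 1 of the 6 genes higher in Pico and 2 in V4. For hormone handling it called 1 higher in Pico, 1 higher in V4, and 3 in each direction in TruSeq, and for the induced genes 9 higher in Pico and 2 lower in V4. Leaving out 1 mouse at a time, the number of the 6 genes called lower was 1 to 3 in Pico and 1 to 2 in V4, and called higher 0 to 1 in V4 and 1 to 2 in TruSeq. For hormone handling it was 2 to 4 higher and 2 to 4 lower in TruSeq, 1 to 3 and 3 to 4 in Pico, and 0 to 1 and 1 to 2 in V4. For the induced genes it was 9 to 12 higher and 1 to 3 lower in Pico, and 1 to 2 lower in V4 and in TruSeq.

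With the mouse as a replicate block in the differences between kits, 1 correlation within a mouse was used for all genes of a pair. It was 0.0991 in the pair Pico and V4, 0.188 in Pico and TruSeq and 0.181 in V4 and TruSeq. The block called 0 of the 6 genes in each pair, as did all other settings, with a smallest adjusted p of 0.968, 0.693 and 0.821, and 0, 0 and 10 of all genes. A Pico library carries fewer counts than the others. V4 had the largest standard error of the 3 kits for each of the 6 genes except Sgk1, where that of TruSeq was larger (0.34 against 0.31).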
